A study of Mus musculus with 4 samples.

Results

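The 6 genes described here encode basic helix-loop-helix (bHLH) transcription factors of head muscle: Tcf21 (capsulin) and Msc (musculin, or MyoR), and the myogenic regulatory factors Myf5, Myod1, Myog and Myf6 (Mrf4). They were chosen by gene symbol, and they are 6 of the 27998 genes in the count tables, each with 1 entry. Single-cell RNA-seq was made from cells of Mesp1Cre;Rosa26-GFPflox/+ mouse embryos of the Swiss Webster strain, in which Cre recombinase made from Mesp1 switches on GFP in early mesoderm and in all its descendants, and living GFP-positive cells were sorted. There was 1 library per stage, each of pooled embryos: E8.0 and E8.25 were taken from the upper part of the body, and E9.5 and E10.5 from the pharyngeal apparatus with the heart. No untreated or mutant group stood beside these 4 libraries, all of the same genotype, so that the comparisons were between stages and between cell classes within a library. Since the dissected region changed together with the stage, stage and region cannot be told apart, and no test between stages was possible.

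The bHLH factors bind DNA as dimers with E proteins at short sites called E-boxes. In the muscles of the jaw, face and throat, Tcf21 and Msc mark precursors in the core of the pharyngeal arches and act upstream of the myogenic factors, whereas trunk and limb muscle comes from somites through Pax3. Myf5 and Myod1 commit cells to the muscle fate, Myf6 shares in commitment and in later maturation, and Myog drives the differentiation of committed myoblasts into fibres.

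In RefSeq on GRCm38.p6, which shares its coordinates with the mm10 build used by the authors, Tcf21 (ENSMUSG00000045680) lies at chr10:22817263-22820143 and Msc (ENSMUSG00000025930) at chr1:14753344-14756089. Myf5 (ENSMUSG00000000435) lies at chr10:107482908-107486927 and Myf6 (ENSMUSG00000035923) at chr10:107492848-107494723, with 5920 bases between these neighbours. Myod1 (ENSMUSG00000009471) is at chr7:46376474-46379092 and Myog (ENSMUSG00000026459) at chr1:134290004-134292548. The annotated gene Gm10824 covers all 2881 bases of Tcf21 and has no entry in the count tables, and Gm9947, with 138 UMIs (unique molecular identifiers, or counted transcripts) over all cells, shares 103 bases with Msc. How strand was handled in counting is not given in the sources used here, so reads in these shared stretches cannot be assigned with certainty.

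The promoters of Tcf21, the earliest member to be detected, and of Myog, one of the members detected only at the last stage, are shown from RefSeq as the 250 bases before the annotated start, 5′ to 3′ on the gene's own strand. Capitals mark each E-box, spelled CANNTG, which reads the same on both strands. The Tcf21 window is chr10:22820144-22820393 on the minus strand and the Myog window is chr1:134289754-134290003 on the plus strand.
Tcf21: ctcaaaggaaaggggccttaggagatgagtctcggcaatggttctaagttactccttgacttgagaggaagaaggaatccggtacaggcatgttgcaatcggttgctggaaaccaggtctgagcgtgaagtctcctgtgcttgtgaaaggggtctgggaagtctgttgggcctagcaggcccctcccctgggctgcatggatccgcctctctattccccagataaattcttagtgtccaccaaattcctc
Myog: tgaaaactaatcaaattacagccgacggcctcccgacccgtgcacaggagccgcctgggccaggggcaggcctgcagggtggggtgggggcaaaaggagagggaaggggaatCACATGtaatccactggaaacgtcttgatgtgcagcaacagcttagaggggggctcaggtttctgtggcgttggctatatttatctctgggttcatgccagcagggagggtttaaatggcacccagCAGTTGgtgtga
The Tcf21 window held 0 E-boxes. The Myog window held 2, CACATG starting 138 bases and CAGTTG starting 12 bases before the gene. Of all 32851 windows of this length, 66.2% held at least 1 E-box, with a median of 1, and neither window held CAGCTG, which is in 13.0% of windows. Such matches describe the sequence only.

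After filtering on genes and mitochondrial reads and after removal of likely doublets, 7118, 2884, 3921 and 7525 cells were retained from the earliest to the latest stage, with median depths of 21321, 35216, 17254 and 15205 UMIs per cell. Library pairs shared 16 to 88 cell barcodes. Clustering without the 6 members gave 33 clusters, of which 25 were named from marker genes into 12 classes. The class called BrM-like, for branchiomeric muscle progenitors, took its name from markers that include Lhx2, Tbx1, Ebf1, Ebf3 and Eya1, and held 1289, 666, 595 and 461 cells at the successive stages. It was made of different clusters early and late. A cluster led by Fst and Foxd1 held 862 and 589 of its cells at E8.0 and E8.25 but 46 and 0 at E9.5 and E10.5, while an Lhx2-led cluster held 50 and 42 early and 485 and 437 late.

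The markers of the class were not equally present at every stage. Lhx2, a LIM homeobox gene of the arch core, was at 3.52 and 7.10 CPM (UMIs per 1000000 UMIs of the summed cells) in BrM-like cells at E8.0 and E8.25 against 225 and 152 CPM at E9.5 and E10.5. Tbx1, a T-box gene of pharyngeal mesoderm, was at 76.2, 111, 276 and 151 CPM in BrM-like cells and at 26.5 to 45.7 CPM in all others. Ebf1 was at 153, 204, 271 and 358 CPM against 38.9 to 58.5 CPM. The early BrM-like cells therefore lacked the level of Lhx2 that marked the late ones, and values that turn on this are given for the Lhx2-led cluster too. One unnamed cluster with 73 cells at E10.5 was led by Lbx1 and Pax3, genes known from migrating somitic muscle precursors, and is called the Lbx1/Pax3 cluster.

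Over all retained cells, Tcf21 was the most abundant member at every stage, and all 6 members had a mean level at E9.5 and E10.5 at least 2-fold above that at E8.0 and E8.25, as did 17% of all genes tested, while 6.68% were at least 2-fold lower. Myf6 lay on that line, with a log2 ratio of 1.00 and a counting interval of 0.47 to 1.62. The counts come from the 3′ end of each transcript, so levels are compared here without a length correction, in CPM. Tcf21 was at 10.7, 12.6, 68.0 and 63.1 CPM from E8.0 to E10.5, and was detected in 1144 of 7118, 595 of 2884, 1742 of 3921 and 2879 of 7525 cells. Msc was at 0.0923, 1.38, 19.2 and 18.7 CPM, from 14, 146, 1356 and 2399 UMIs. Msc thus went from almost nothing to the second highest level among the members between E8.0 and E9.5.

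The myogenic factors were lower. Myf5 was at 0.857, 0.830, 6.27 and 6.58 CPM, from 130, 88, 443 and 842 UMIs. Myod1 had 15, 5, 19 and 360 UMIs (0.0989, 0.0472, 0.269 and 2.81 CPM), and Myog had 1, 1, 2 and 509 UMIs (3.98 CPM at E10.5). Myog was at the edge of detection in 3 of 4 libraries, and its place above Myod1 at E10.5 rested on 5 cells, without which Myog was at 2.12 CPM (271 UMIs) and Myod1 at 2.56 CPM (327 UMIs). Myf6 stayed rare at every stage, with 27, 16, 20 and 48 UMIs (0.178, 0.151, 0.283 and 0.375 CPM). The exact 95% counting intervals of neighbouring members in the order of levels at E10.5 did not overlap, from Tcf21 through Msc, Myf5, Myog and Myod1 to Myf6, but these intervals take each UMI as independent, which the few cells with many Myog UMIs do not meet.

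**Figure D1:**
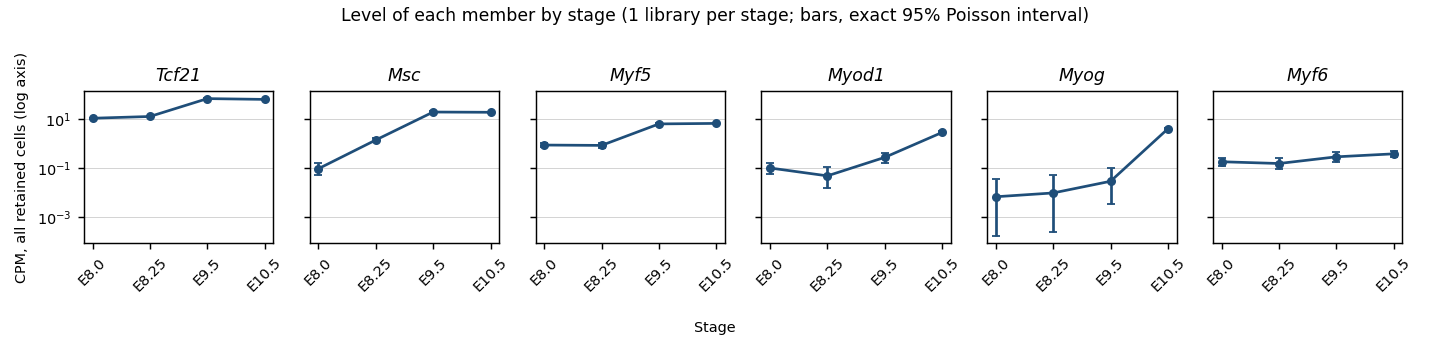
Level of each of the 6 members in the sum of all retained cells (CPM, log axis) against embryonic stage, with exact 95% Poisson intervals that cover counting error only and 1 library per stage. Tcf21 and Msc are higher at E9.5 than at E8.25 and nearly level after that, while Myod1 and Myog are higher at E10.5 than at E9.5.

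The members differed in the interval between stages that held the largest ratio. Between E8.0 and E8.25, 1 member passed 2-fold upward: Msc, with a log2 ratio of 3.90 (95% counting interval 3.11 to 4.81), against 4.55% of all genes tested that were at least 2-fold higher. Myod1 passed 2-fold downward on 20 UMIs, with -1.07 (-2.88 to 0.46), as did 7.25% of all genes tested. Tcf21 had a ratio of 0.24 (0.13 to 0.34) and Myf5 of -0.05 (-0.45 to 0.35) in that interval. Between E8.25 and E9.5, where 15.6% of all genes tested were at least 2-fold higher and 6.62% lower, Tcf21 had a log2 ratio of 2.43 (2.34 to 2.52), Msc of 3.80 (3.55 to 4.06) and Myf5 of 2.92 (2.59 to 3.27). Myod1 had 2.51 on only 24 UMIs (1.04 to 4.29). Between E9.5 and E10.5 9.19% of all genes were at least 2-fold higher and 4.97% lower, and Myod1 had a log2 ratio of 3.39 (2.72 to 4.13) and Myog of 7.13 (5.27 to 10.18), whereas Tcf21, Msc and Myf5 were at -0.11 (-0.16 to -0.06), -0.03 (-0.13 to 0.06) and 0.07 (-0.10 to 0.24). Myf6 had intervals that held 0 in both later intervals. These intervals cover counting error in 1 library per stage and not the spread between embryos.

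Tcf21 was spread over many mesodermal classes, and its leading class differed between stages. At E8.0 and E8.25 it was highest in MLP-like cells, named from markers of multilineage pharyngeal progenitors such as Isl1 and Nrg1, at 27.5 and 50.8 CPM, against 18.4 and 25.8 CPM in BrM-like cells. At E9.5 BrM-like cells (153 CPM, counting interval 146 to 161) and proepicardial-like cells (137 CPM, 129 to 146), named from Wt1 and Tbx18, led, with intervals that did not overlap but were separated by less than 1 CPM. At E10.5 the 203 proepicardial-like cells stood highest at 321 CPM, followed by BrM-like cells at 183, MLP-like cells at 97.9 and pSHF-like cells, named from markers of the posterior second heart field, at 92.2 CPM. The intervals of the last pair overlapped. The pSHF-like class was mixed: its cells at E10.5 lay in clusters of 1018, 737, 632 and 129 cells. Of its 6 markers 3, 4, 5 and 5 were raised in these, and only the last had Wnt2 and Tbx5 among its leading genes. They held 1150, 1404, 463 and 189 Tcf21 UMIs. Tcf21 in the epicardial lineage is textbook knowledge, and at E10.5 39.7% of all Tcf21 UMIs lay in pSHF-like cells, 17.4% in BrM-like cells and 17.4% in proepicardial-like cells.

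Msc was narrower. At E9.5 it was at 57.6 CPM in BrM-like cells and 32.1 CPM in pSHF-like cells, and at E10.5 at 83.9 and 42.5 CPM. In the pSHF-like clusters of 1018, 737, 632 and 129 cells at E10.5, Msc had 631, 641, 172 and 34 UMIs. All other named classes were at or below 10.3 CPM at E10.5, and the 26 paraxial cells that gave that value held 4 UMIs. In proepicardial-like cells, where Tcf21 peaked, Msc was at 1.03 and 1.60 CPM in the late libraries. In CM-like cells, which carry cardiomyocyte genes such as Tnnt2 and Myl7, it was at 0, 0, 0.400 and 3.07 CPM. The pair that marks branchiomeric precursors was thus parted in proepicardial-like cells, but not there alone. In MLP-like cells of the late libraries Tcf21 was at 85.0 and 97.9 CPM and Msc at 2.38 and 6.71 CPM. Lateral plate-like cells had 29.0 and 47.5 CPM of Tcf21 against 0.439 and 1.01 CPM of Msc. In CM-like cells Tcf21 was at 23.2 and 37.8 CPM, beside 16.3 and 26.5 CPM in endothelial-like cells.

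The class that held most Myf5 differed between the early and late libraries. At E8.0, 56.1% of the cells with a Myf5 UMI lay in the paraxial mesoderm-like class, where it was at 5.16 CPM, against 0.503 CPM in BrM-like cells. At E9.5 and E10.5 BrM-like cells were at 34.0 and 50.9 CPM, and 91.6% and 46.3% of all Myf5 UMIs lay in them. The paraxial class, which held 673, 398, 42 and 26 cells, was at 3.76, 1.57 and 0 CPM after E8.0. In the Lbx1/Pax3 cluster at E10.5 Myf5 reached 95.2 CPM, above its level in BrM-like cells.

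Myod1 and Myog were found almost entirely at E10.5, and in several clusters. Myod1 was at 0.0419, 0.0910, 1.51 and 13.3 CPM in BrM-like cells, and 18 of its 19 UMIs at E9.5 lay there. Myog was at 16.1 CPM in BrM-like cells at E10.5, with 123 of 509 UMIs, of which 3 cells held 50, 31 and 10, and it was in 0 of 595 cells at E9.5. Without the 5 cells that held most Myog UMIs over the library, BrM-like cells were at 5.51 CPM of Myog, below their 12.6 CPM of Myod1. The Lbx1/Pax3 cluster was higher for both, at 44.6 CPM of Myod1 and 54.7 CPM of Myog. Cranial mesenchyme-like cells, named from Prrx1 and Twist1 among others, stood at 7.05 CPM of Myog and at 0.979 CPM without those cells.

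Myf6 was too sparse to be placed beyond counts. It was at 0.210, 0.137, 1.34 and 1.83 CPM in BrM-like cells, with 16 of its 20 UMIs at E9.5 and 14 of its 48 at E10.5. At E8.0, 15 of its 26 cells lay in the paraxial class.

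**Figure D2:**
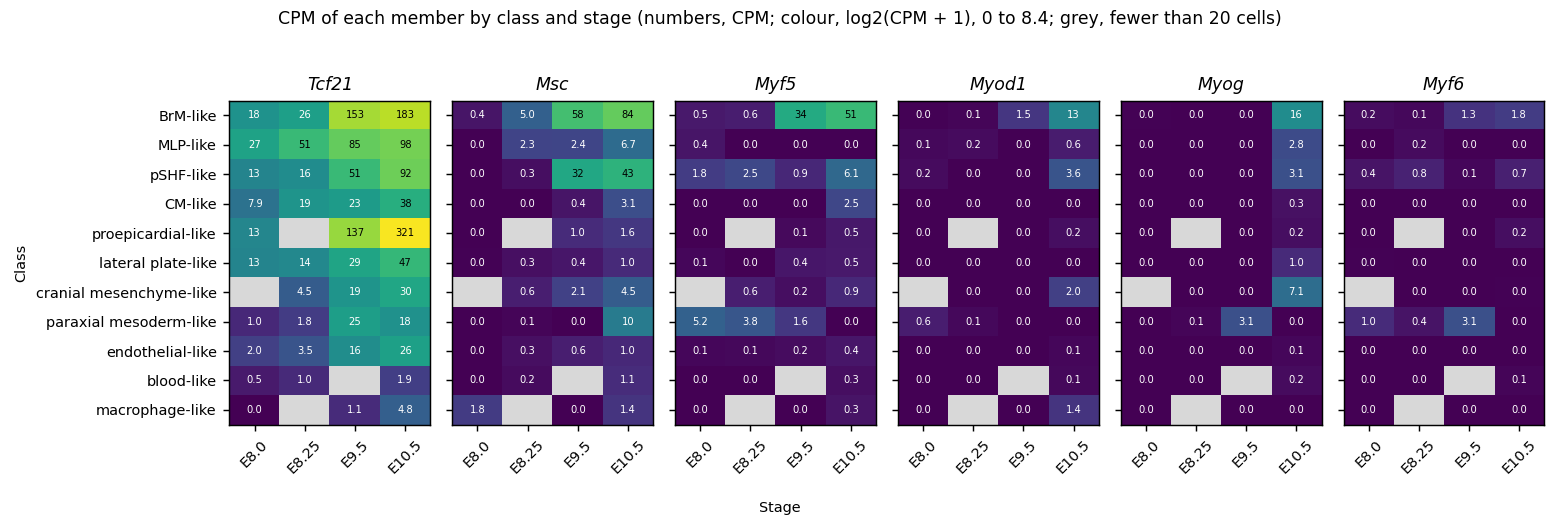
Level of each member in the summed cells of 11 of the 12 named classes (rows; the neural crest-like class is not drawn) at each stage (columns), with CPM as numbers, log2(CPM + 1) as colour and grey for fewer than 20 cells. In the late libraries Tcf21 fills most mesodermal classes and Msc and Myf5 are highest in BrM-like cells (83.9 and 50.9 CPM at E10.5), and Myod1 and Myog are highest at E10.5.

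The order of onset in BrM-like cells was set by the share of cells with at least 1 UMI after every cell was thinned to 8000 UMIs, and a member was taken as detected where the exact binomial 95% interval lay above that in endothelial-like cells of the same library, which should lack these genes. By this measure the order was Tcf21 first, then Msc and Myf5, then Myod1 and Myog, and Myf6 at no stage. Tcf21 was detected at all 4 stages, in 11.5%, 11.9%, 61.6% and 65.0% of BrM-like cells against 1.75%, 3.06%, 10% and 13.9% of endothelial-like cells. With each library clustered alone, no member was detected at E8.25, Tcf21 included, where 328 cells were BrM-like. A stage with fewer than 20 cells of either class also counts as not detected. The number of endothelial-like cells in that setting is not given here. Unthinned, the Tcf21 shares were 18.1%, 22.7%, 78.8% and 76.4%, at median depths of 18851, 32020, 19066 and 16264 UMIs in BrM-like and 20295, 31794, 16509.5 and 17344 UMIs in endothelial-like cells. The endothelial-like share of Tcf21 was not even: 1 endothelial-like cluster of 339 cells at E10.5 was at 40.9 CPM of Tcf21, and blood-like cells were at 1.93 CPM.

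Msc was detected from E9.5 on, in 28.5% (24.9 to 32.4) and 35.2% (30.7 to 40.0) of BrM-like cells, against 0% (upper limit 1.41%) and 0.842% of endothelial-like cells. At E8.25 its share of 2.86% (1.73 to 4.43) overlapped the endothelial-like 0.437% (0.0111 to 2.41). In the 42 Lhx2-led cells of that stage the share was 14.3% (5.43 to 28.5), which lay above it, so that Msc came 1 stage earlier than Myf5 when only that cluster was read. Without thinning, Msc was also detected at E8.25.

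Myf5 was detected in 20% (16.8 to 23.5) of BrM-like cells at E9.5 and, 1 day later, in 26.5% (22.4 to 31.0), against at most 0.301% before. Myod1 was in 0.696% (0.190 to 1.77) at E9.5, which overlapped the endothelial-like limit of 1.41%, and in 7.28% (5 to 10.2) at E10.5. Myog was in 0% at the 3 earlier stages and in 3.76% (2.16 to 6.03) at E10.5, against 0.211% (up to 1.17%) of endothelial-like cells. Myf6 reached 1.22% and 1.64% in the late libraries, which overlapped the background of the same libraries at this depth. Outside the BrM-like class, Myf5 was in 4.03% (2.67 to 5.81) of paraxial cells at E8.0, the earliest stage at which a myogenic factor was detected. In the Lbx1/Pax3 cluster at E10.5 the thinned shares were 40.3% (28.9 to 52.5) for Myf5, 23.6% (14.4 to 35.1) for Myod1 and 29.2% (19.0 to 41.1) for Myog, above those of BrM-like cells without overlap of the intervals for Myod1 and Myog.

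**Figure D3:**
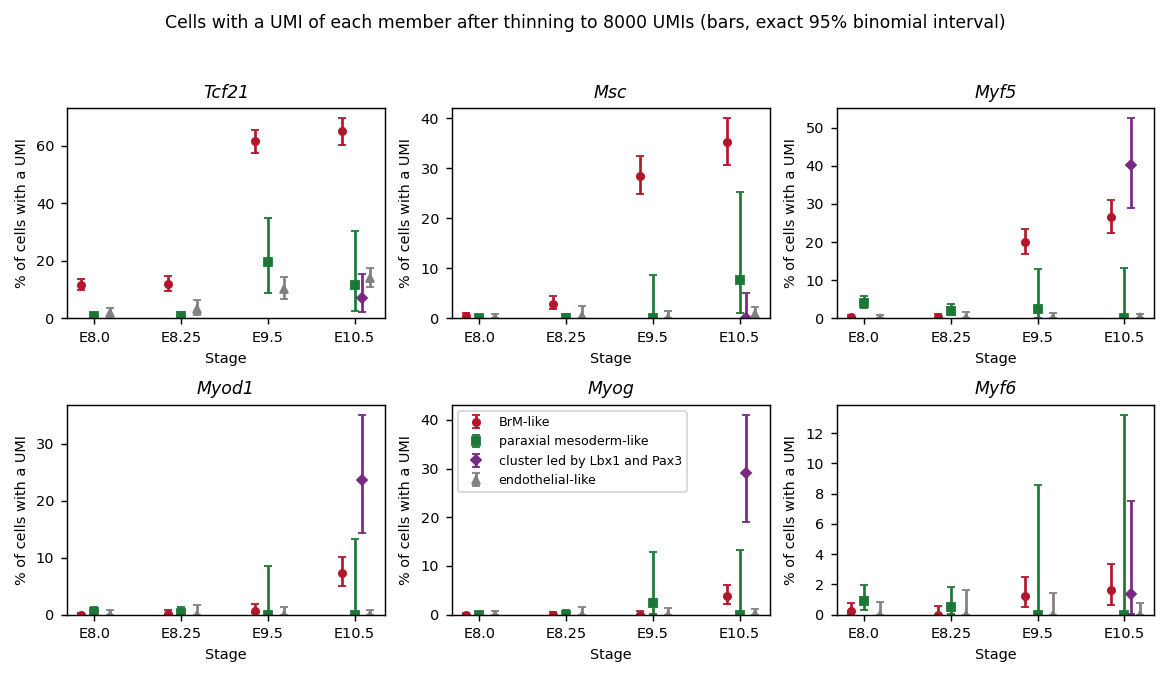
Share of cells with a UMI of each member (percent, cells thinned to 8000 UMIs) against stage in BrM-like, paraxial mesoderm-like and endothelial-like cells and, at E10.5, in the Lbx1/Pax3 cluster, with exact binomial 95% intervals. In BrM-like cells Tcf21 lies above the endothelial-like share at all stages, Msc and Myf5 from E9.5, and Myod1 and Myog at E10.5 only.

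The levels in BrM-like cells were then compared with those of other classes over the 4 libraries as pairs, with the quasi-likelihood test of edgeR and p-values adjusted over all genes after Benjamini and Hochberg. Members took no part in clustering or naming, but the clusters were built from other genes of the same cells. Against all other cells, Tcf21 was higher in BrM-like cells of all 4 libraries, at 18.4 against 9.28, 25.8 against 9.19, 153 against 50.6 and 183 against 55.4 CPM. Its log2 fold change was 1.44 (SE 0.12, adjusted p = 0.00352 by edgeR). Msc was at 0.377 against 0.0391, 4.96 against 0.440, 57.6 against 11.4 and 83.9 against 14.6 CPM, a log2 fold change of 2.71 (SE 0.22, adjusted p = 0.00349 by edgeR), again higher in 4 of 4 libraries. Of 13988 genes tested, 3.52% were called higher and 6.4% lower in BrM-like cells, and 2 of the 3 members that passed the filter on low counts were among them.

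Myf5 was the member that was not called in that comparison. It was lower in BrM-like cells at E8.0 (0.503 against 0.924 CPM) and E8.25 (0.592 against 0.892 CPM) and higher at E9.5 (34.0 against 0.631 CPM) and E10.5 (50.9 against 3.76 CPM). The log2 fold change of 2.41 had an SE of 1.34 (adjusted p = 0.303 by edgeR), with the opposite sign of the difference in the early and the late libraries. When the Lhx2-led cluster alone stood for BrM-like cells, an alternative chosen after seeing the data, Myf5 was called higher (log2 fold change 3.30, SE 0.35, adjusted p = 0.00125 by edgeR). In that fit 5 members in all were called, as were 2.85% of 13649 genes higher and 6.56% lower. Its early side held few counts. Myf5 was in 1 of 50 cells of the cluster at E8.0 and 2 of 42 at E8.25, Myod1 in 0 and 1 and Myog in 1 and 0. Myod1, Myog and Myf6 did not pass the filter on low counts with all BrM-like clusters. Without the library as a block, 0 members were called by edgeR.

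Against the neighbouring heart field classes the members separated differently. Compared with MLP-like cells, Msc was higher in BrM-like cells of all 4 libraries (log2 fold change 3.25, SE 0.55, adjusted p = 0.0281 by edgeR), in a comparison where 1.4% of 11256 genes were called higher and 2.24% lower. This call did not hold when E8.0, E9.5 or E10.5 was left out, with adjusted p of 0.0776, 0.125 and 0.0853 by edgeR, nor without the library as a block. Tcf21 did not differ by the test (log2 fold change 0.08, SE 0.35, adjusted p = 0.972 by edgeR), being lower in BrM-like cells in both early libraries and higher in both late ones. Read with the Lhx2-led cluster alone, again a choice made after seeing the data, Tcf21 was called higher than in MLP-like cells (log2 fold change 1.15, SE 0.12, adjusted p = 0.00290 by edgeR).

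Compared with pSHF-like cells, where 1.17% of 12229 genes were called higher and 1.54% lower, no member was called by edgeR, although Tcf21 and Msc were higher in BrM-like cells of all 4 libraries. Tcf21 had a log2 fold change of 1.02 (SE 0.18, unadjusted p = 0.00148, adjusted p = 0.0514 by edgeR), and DESeq2 called it. Msc had 1.31 (SE 0.40, unadjusted p = 0.0181, adjusted p = 0.178 by edgeR). Tcf21 and Msc were thus the 2 members with an unadjusted p under the 0.05 threshold there. Myf5 had 2.05 (SE 1.37) and Myf6 0.86 (SE 0.90), with adjusted p of 0.504 and 0.685 by edgeR. The pSHF-like class also changed its make-up with stage. A cluster led by Cxcl13, Osr1 and Moxd1 held 21, 23, 224 and 1018 of its 616, 204, 1055 and 2516 cells. That cluster was close to the BrM-like class: 34.1% of its E10.5 cells were named BrM-like when no batch correction was made. With each library clustered alone it was 5.99%.

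Compared with CM-like cells, Tcf21 (log2 fold change 1.71, SE 0.37, adjusted p = 0.0190 by edgeR) and Msc (log2 fold change 5.66, SE 0.46, adjusted p = 0.000651 by edgeR) were higher in BrM-like cells of all 4 libraries. In that comparison 14.5% of 11400 genes were called higher and 17.7% lower. The Tcf21 call was lost without E9.5 (adjusted p = 0.0732 by edgeR) or E10.5 (adjusted p = 0.0571 by edgeR). Without E10.5 Msc did not pass the filter on low counts, and neither call was made without the library as a block.

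In BrM-like cells of the late libraries, most cells with a myogenic factor also held Tcf21 or Msc, as did most BrM-like cells of those libraries. Cells with a UMI of at least 1 of the 4 myogenic factors made up 133, 66, 252 and 629 cells of the 4 libraries, or 1.87%, 2.29%, 6.43% and 8.36%. Among BrM-like cells they were 19, 13, 221 and 241 cells, the last pair being 37.1% and 52.3% of the class. Of these, 92.3% (204 of 221, exact interval 88.0 to 95.5) and 95.4% (230 of 241, 92.0 to 97.7) also had Tcf21 or Msc, against 508 of 595 (85.4%) and 389 of 461 (84.4%) in the whole class. In the early BrM-like cells with a myogenic factor, 4 of 19 (21.1%) and 5 of 13 (38.5%) did, against 18.5% and 23.4% of the class. In early paraxial cells, 2 of 72 (2.78%, 0.338 to 9.68) at E8.0 and 3 of 36 (8.33%) at E8.25 did, against 2.08% and 5.03% of the class. Over all retained cells with a myogenic factor the shares were 6.77%, 24.2%, 89.3% and 71.4%, against 16.2%, 21.3%, 49.6% and 43.1% of all retained cells.

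The Lbx1/Pax3 cluster had few cells with Tcf21 or Msc. Of its 73 cells 59 had a myogenic factor (80.8%), and 11 of these (18.6%, 9.69 to 30.9) had Tcf21 or Msc, against 13 of all 73 (17.8%). Pax3 or Lbx1 was in 94.9% of those 59 cells, which the choice of the cluster by its leading genes fixes, and in 2.49% (0.919 to 5.34) of the 241 BrM-like cells with a myogenic factor. Over all 629 such cells at E10.5, 429 had Tcf21 or Msc only, 83 had Pax3 or Lbx1 only, 20 had both and 97 had neither. Other clusters lay in between: 94 of 127 (74.0%) in the pSHF-like cluster led by Cxcl13, Osr1 and Moxd1 had Tcf21 or Msc. Among the cells of that cluster without a myogenic factor, 555 had Tcf21 or Msc and 336 had neither. In another pSHF-like cluster it was 18 of 43 (41.9%), and 41.9% of the 43 had Pax3 or Lbx1. Of all pSHF-like cells at E10.5, 64.7% had Tcf21 or Msc. Shares of Pax3 or Lbx1 in all cells of each group are not given here. In blood-like cells, 18 of 1020 had a myogenic factor UMI and 0 of these had Tcf21 or Msc. All 1020 blood-like cells together held 54 UMIs of Tcf21 and 30 of Msc.

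**Figure D4:**
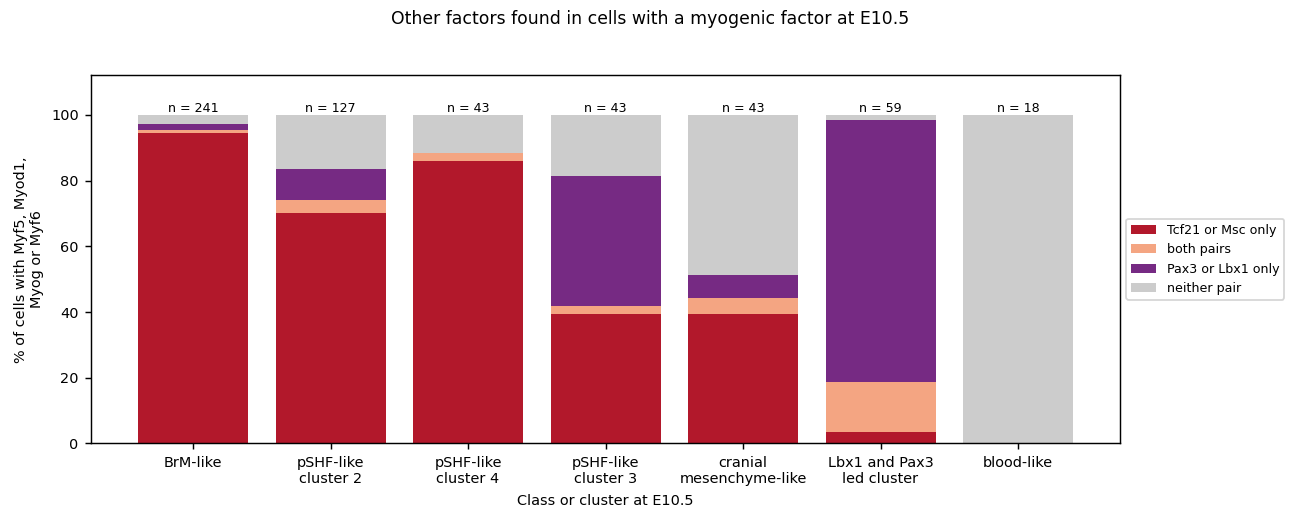
Cells with a UMI of Myf5, Myod1, Myog or Myf6 at E10.5, split by whether they also held Tcf21 or Msc only, Pax3 or Lbx1 only, both or neither (percent of such cells, n above each bar), by class or cluster. The pSHF-like clusters are shown by number, 2 being the one led by Cxcl13, Osr1 and Moxd1. Of such cells 95.4% held Tcf21 or Msc in the BrM-like class and 18.6% in the Lbx1/Pax3 cluster, against 84.4% and 17.8% of all cells there.

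Tcf21 and Msc overlapped, by a share that differed with depth, UMI threshold and class. At E10.5, 679 of 1042 Msc cells (65.2%) had Tcf21, 1.70 times the number expected if the genes were independent over all cells. Within BrM-like cells the same ratio was 1.10, on 189 cells with both. Over all cells at E10.5 the share of Msc cells with Tcf21 was 51.5% (47.6 to 55.3) after thinning. With at least 2 UMIs of each it was 46.9%. In pSHF-like cells at E9.5, 43.6% of Msc cells had Tcf21, against 45.9% of the class. Of 426 Myf5 cells at E10.5, 288 (67.6%) had Tcf21 and 37.8% had Msc, against 38.3% and 13.8% of all cells. Within BrM-like cells 177 of 200 Myf5 cells (88.5%) had Tcf21 and 58.5% had Msc, against 76.4% and 49.0% of the class. At E9.5, 194 of 231 Myf5 cells (84.0%) had Tcf21 and 50.2% had Msc. Myf5 cells without a UMI of Tcf21 were thus few in the BrM-like class.

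The share of cells with Tcf21 was also read for the later factors, over all cells and within the class. Of 166 Myod1 cells at E10.5, 97 (58.4%) had Tcf21, 48 (28.9%) had Myf5 and 44 (26.5%) had Myog. Of 157 Myog cells, 80 (51.0%) had Tcf21, 17.8% had Msc, 61 (38.9%) had Myf5 and 44 (28.0%, 21.2 to 35.7) had Myod1. Of all cells at E10.5, 38.3% had Tcf21, 13.8% Msc, 5.66% Myf5 and 2.21% Myod1. Within BrM-like cells, 23 of 27 Myog cells (85.2%) and 38 of 53 Myod1 cells (71.7%) had Tcf21, beside 76.4% of the class. In the Lbx1/Pax3 cluster, 24 of 37 Myog cells (64.9%) had Myf5, 15 (40.5%) had Myod1 and 5 (13.5%) had Tcf21. Over all cells the ratio of observed to expected cells was 12.7 for Myod1 with Myog, 6.86 for Myf5 with Myog, 5.11 for Myf5 with Myod1 and 8.64 for Myf5 with Myf6.

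Within BrM-like cells, where such ratios do not rest on the difference between classes, they were lower. Myod1 with Myog was at 2.58 on 8 cells, Myf5 with Myog at 1.45 on 17 cells and Myf5 with Myf6 at 1.77 on 10 cells. Myf5 with Myod1 was at 0.826 on 19 cells, the only one of these pairs under 1. With so few UMIs per cell, many cells that hold a transcript give no UMI: 57.2% of Myod1 cells and 65.6% of Myog cells at E10.5 had a single UMI. These ratios are descriptions of cells that share 1 library.

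Most cells with a myogenic factor had a single one detected. At E9.5, 241 cells had 1 factor, 11 had 2, and 0 had 3 or 4. At E10.5, 486 had 1, 123 had 2, 18 had 3 and 2 had all 4. In the BrM-like class at E10.5 the counts were 194, 43, 3 and 1, and in the Lbx1/Pax3 cluster 20, 30, 9 and 0. More than 1 factor per cell was therefore the commoner case in the Lbx1/Pax3 cluster, at a median depth of 23358 UMIs against 16264 UMIs in BrM-like cells. The part of depth in that difference was not tested.

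A few cells carried much of the Myog signal, and 5 cells held 46.8% of all Myog UMIs at E10.5. The highest had 97 Myog UMIs with 1 of Myod1 and 0 of Tcf21, Msc and Myf5. It also had 82 UMIs of Actc1 (cardiac alpha-actin, made early in skeletal fibres too), 37 of Tnnt1 (a slow skeletal troponin), 18 of Myl1 (a myosin light chain) and 233 of the cell-cycle inhibitor Cdkn1c, with 0 UMIs of Mki67 and Top2a, which mark cycling cells. The second and the third, with 50 and 46 Myog UMIs and 5 and 23 of Myod1, had 17 and 30 of Actc1, 32 and 28 of Tnnt1 and 160 and 145 of Cdkn1c, and again 0 of Mki67 and Top2a. The highest and the third lay in a cranial mesenchyme-like cluster and the second in the Lhx2-led one. The fourth, with 31 Myog UMIs, had 5 UMIs of Mki67 and 10 of Top2a, so that high Myog was also found beside cycling genes.

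Cells at E10.5 were then ordered by the latest member detected: 4103 with none, 2793 with Tcf21 or Msc only, 350 with Myf5 or Myf6, 122 with Myod1 and 157 with Myog, at median depths of 14979 to 16893.5 UMIs. Muscle genes did not all become high at the same place in this order. Tnnt1 was at 17.6, 26.7, 156, 163 and 153 CPM. It was high from the first myogenic factor on, and level after it. Hes6, a bHLH gene of differentiating precursors, was at 30.2, 46.1, 98.9, 120 and 123 CPM, and Des (desmin, the muscle intermediate filament) at 42.7, 62.2, 93.7, 97.1 and 134 CPM. Cdh15 (M-cadherin, a muscle cell adhesion protein) was higher at each place in the order, at 0.251, 1.78, 12.9, 19.1 and 26.7 CPM.

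Genes of fusion and of the neuromuscular synapse stayed near the edge of detection. Tmem8c (myomaker, needed for myoblast fusion) had 0 CPM in every group but the Myog cells, where 9 UMIs gave 3.17 CPM. Chrna1, a subunit of the muscle acetylcholine receptor, was at 2.46 CPM in Myog cells and at or below 0.456 CPM elsewhere. The cycling gene Mki67 was at 117, 91.8, 96.9, 86.6 and 82.4 CPM along the order and Top2a at 208, 266, 265, 264 and 244 CPM. Of the 157 Myog cells 65.6% had a single Myog UMI, and 5 of 1020 blood-like cells also had one, so that the group can hold cells that did not express Myog. Actc1 was highest in cells with no member, at 281 CPM against 73.2 CPM in Myog cells, a group that includes the cardiomyocyte-like cells.

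Within BrM-like cells alone the same order held 61, 159, 169, 45 and 27 cells. Tnnt1 was at 35.6, 122, 214, 312 and 385 CPM there. The cell-cycle inhibitor Cdkn1a (p21) was at 16.6, 58.3, 130, 24.3 and 159 CPM and Cdkn1c (p57) at 685, 620, 511, 754 and 1204 CPM. Cdkn1a was thus low in the Myod1 group between 2 higher neighbours. The Myog group of 27 cells held 472572 UMIs in all, and 1 of its cells held 160 UMIs of Cdkn1c, so that few cells weigh on its value. In the Lbx1/Pax3 cluster Cdkn1c was at 222, 239 and 226 CPM from the Myf5 group to the Myog group, below its level in every BrM-like group.

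**Figure D5:**
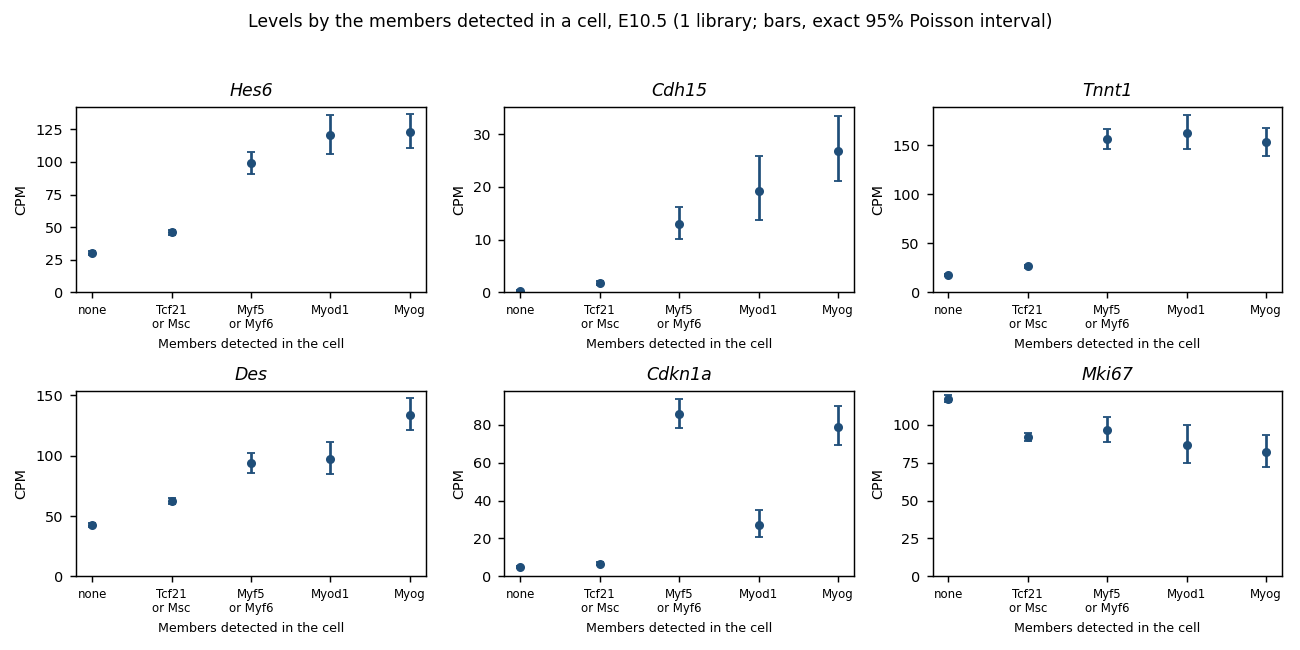
Level of 6 muscle and cell-cycle genes (CPM, axes from 0) in all retained cells at E10.5, grouped by the latest member detected in the cell, with exact 95% Poisson intervals that cover counting error only. Tnnt1 is high from the Myf5 or Myf6 group on, Cdh15 is higher in each group than in the one before, and Cdkn1a is lower in the Myod1 group (27.4 CPM) than in the groups on either side.

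The BrM-like cells of the late libraries were also split by whether they held a UMI of any myogenic factor, 221 against 374 cells at E9.5 and 241 against 220 at E10.5, with median depths of 20476 against 18312 and 17405 against 14960 UMIs. Of 9236 genes, 6 (0.065%) were at least 2-fold higher with a myogenic factor in both libraries and 34 (0.368%) at least 2-fold lower. The 6 were Cdkn1a, the neuronal tubulin gene Tubb3, the homeobox gene Emx2, Rtn2, Dcaf12l1 and 9330159F19Rik. Cdkn1a was at 38.6 against 12.6 CPM at E9.5 and 114 against 47.8 CPM at E10.5, log2 ratios of 1.54 and 1.24. After thinning to equal depth, or with at least 2 UMIs of the factors asked for, 0 genes were higher, so that none of the 6 remained, and with doublets kept 2 of the 6 remained, Rtn2 and 9330159F19Rik. The part of depth in these differences was not otherwise tested.

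Of the 34 lower genes, 22 were also lower with at least 2 UMIs and 12 after thinning. With doublets kept 4 of the 34 remained, without batch correction 10, and with each library clustered alone 8. Under other seeds or resolutions 25 to 34 remained. The 10 furthest lower of the 34 are named here. Vcam1, an adhesion molecule, was at 0.613 against 11.2 CPM and 2.09 against 32.3 CPM, log2 ratios of -2.92 and -3.43. Pdgfra, the receptor that marks mesenchyme and connective tissue precursors, had -1.73 and -2.89, Bgn (biglycan) -2.12 and -1.78, Col3a1 (a fibrillar collagen) -1.54 and -1.34, Irx1 -1.84 and -2.42 and Hoxb2 -1.43 and -1.72. Spp1 (osteopontin) had 0 UMIs in cells with a myogenic factor against 27 and 30 UMIs in the others. Gm26523, Ddr2 (a collagen receptor) and Pappa made up the 10. With 1 library per stage these are values without a test.

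Of the lists of related genes, 1 gene in all was at least 2-fold apart in both libraries. Of 17 upstream regulators of head muscle 12 could be read, and 0 were called higher or lower, with median log2 ratios of -0.01 and -0.02 against 0.01 and -0.01 over all genes. Of 25 muscle target genes 11 could be read, and 0 were called, with medians of 0.10 at E9.5 and 0.76 at E10.5. Of 15 bHLH partners and inhibitors 13 could be read, with 0 called and medians of 0.01 and -0.47. Of 10 Notch genes 6 could be read, with 0 called, and of 11 cell-cycle genes 10, with 1 called higher, Cdkn1a, and 0 lower.

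Single genes of these lists had the following values at E9.5 and E10.5. Tnnt1 had log2 ratios of 0.37 and 1.31 and Ttn (titin) of -0.10 and 1.42, whereas Myl1 had 0.78 and 0.76 and Tnni1, a slow skeletal troponin, 0.04 and -0.47. Cdh15 had 0.81 and 1.07, and Mef2c, of the same list of targets, -1.03 and -0.83. Id1 and Id3, which bind E proteins and keep them from the myogenic factors, had -0.54 and -0.83 and -0.21 and -0.81. Id2, of the same family, had 0.10 (0.04 to 0.15) and -0.47. Hes6 (0.38 and 0.58) and Ebf3 (-0.57 and -0.85) kept their sign in both libraries without passing 2-fold in either.

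The genes most like each member were found from the correlation of log2(CPM + 1) over 41 sums of class and library, which share libraries and depth, so that r is a description. Tcf21 was most like Ptprd (r = 0.879), Nkain4 (0.857), Mmp11 (0.844), Capn6 (0.839) and Zfp579 (0.838). Msc was most like Gm9947 (0.843), the gene that overlaps it, then Neto1 (0.826), Moxd1 (0.817), Gfra1 (0.793) and Chrdl1 (0.783). Myf5 was most like Cpne4 (0.846), Gm9947 (0.840), Lrrn1 (0.840), Tnfsf4 (0.828) and Emx1 (0.820).

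The later factors had partly shared lists. Myod1 was most like D430041D05Rik (0.880), Emx2os (0.876), RP23-291B1.2 (0.810), Gm9947 (0.807) and Moxd1 (0.793), and Myog most like Moxd1 (0.814), Nell2 (0.804), Cpa4 (0.797), Myod1 (0.784) and Emx2os (0.769). Myf6 was most like Myf5 (0.763), its neighbour on the chromosome, then Galnt5 (0.743), Gm14286 (0.726), Nell2 (0.718) and Sypl2 (0.700). Among the members, Tcf21 with Msc had r = 0.572, Msc with Myf5 0.623 and Myf5 with Myod1 0.754.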

How the data were processed

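The authors sorted GFP-positive cells, made 10x 3′ libraries (chemistry version 2) and processed them with Cell Ranger 3.1.0 against mm10, both per the submitters' processing notes. The deposited values are raw UMI counts per gene and cell, with nothing normalized, and total 168407965, 110213770, 74920880 and 142850521 UMIs in 7581, 2956, 4055 and 8070 cells from the earliest stage to the latest. Each stage is 1 library of pooled embryos, so stages were described and not tested.

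Cells with under 1000 genes or over 10% mitochondrial UMIs were left out (4, 2, 3 and 28 cells), then the highest Scrublet scores at 0.8% per 1000 cells (459, 70, 131 and 517 cells). Clusters came from 2000 variable genes without the 6 members, 50 principal components, mutual nearest neighbours (20) between libraries and the Leiden method (15 neighbours, resolution 1.5, seed 0). A class was named where at least 3 markers and 50% of its list were raised (at least 20 CPM and 1.5-fold) and 1 of them was among the 10 leading genes or 75% were raised. CPM is the summed count per 1000000 UMIs. Shares were also taken after thinning to 8000 UMIs, which left out 501, 8, 249 and 803 shallower cells.

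Counts summed per library and class were tested by edgeR 4.0.16 in R 4.3.3 (quasi-likelihood, TMM, low-count filter, Benjamini-Hochberg over all genes, threshold 0.05, library as block, since both sums come from the same library). The SE is the log2 fold change over the square root of F. The p-values measure the spread between 4 libraries of different stages. DESeq2 1.42.0 was an alternative, and the tests were checked on simulated data. Intervals are exact at 95% and cover counting error only. Besides the members, the text names the 5 genes most correlated with each (at least 100 UMIs), the 10 genes furthest higher or lower with a myogenic factor (at least 20 UMIs and 2-fold in both late libraries, pseudocount 1 CPM), and genes of lists of regulators, partners, targets, Notch and the cell cycle. The members and lists were chosen with earlier results of these data known. Promoters are from the RefSeq table on GRCm38.p6, which held windows for 3 of the 6 members; the Myf5 window lay within its annotated span and is not printed. Some genes of the marker and regulator lists are not reported here by name.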

Additional observations from a re-analysis of the deposited data

Results flagged for a closer look

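In 3 comparisons the sign of a member's difference was the same in both early libraries and the opposite in both late ones; the difference between early and late was not tested, and the dissected region and the clusters that made up the BrM-like class changed along with the stage. Myf5 in BrM-like minus all other cells had a mean difference of -0.361 CPM over E8.0 and E8.25 and of 40.3 CPM over E9.5 and E10.5. Myf5 in BrM-like minus pSHF-like cells had -1.62 and 39.0 CPM. Tcf21 in BrM-like minus MLP-like cells had -17.1 and 76.8 CPM.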

How the results depend on the processing

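There was 1 library per stage: stage, dissected region and library cannot be told apart, and the BrM-like class was made of other clusters early than late. The make-up of the pSHF-like class differed between stages too. Low counts limit Myod1, Myog and Myf6, which did not pass the filter in most tests. All 6 members were at least 2-fold higher late than early (Myf6 by a log2 ratio of 1.00), and 5 or 6 were under each of the 9 alternatives tried, against 17% of all genes in the main setting. Onset differed for single members: Msc was first detected at E8.25 at resolution 2.0, without thinning or in the Lhx2-led cluster alone, Tcf21 at E8.25 without batch correction (which left no BrM-like cells at E8.0), Myf6 at E10.5 without a cell filter or batch correction and at E9.5 without thinning, and Myog at no stage with at least 2 UMIs. With separate clustering of every library, no member was detected at E8.25, by a rule under which too few cells of a class also count as not detected.

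The number of members called against all other cells was 2, and 0 without the library as a replicate block, 1 without batch correction and 5 with the Lhx2-led cluster alone, an alternative chosen after seeing the data. Against MLP-like cells it was 1, and 0 to 1 with a library left out, 0 without the block or the cell filter, and 2 without the low-count filter, at resolution 2.0 or with the Lhx2-led cluster. Against pSHF-like cells it was 0, and 1 with DESeq2, without the low-count filter, with seed 2, at resolution 2.0, without the cell filter or with the Lhx2-led cluster. Against CM-like cells it was 2, and 0 to 3 with a library left out, 6 without the low-count filter, 0 without the block and 1 with separate clustering of every library. The Tcf21 log2 fold change against MLP-like cells, 0.08, was -0.12 with seed 2, -0.047 at resolution 1.0 and -0.076 without the cell filter, and from -0.22 to 0.43 with a library left out. The Myf6 log2 fold change against pSHF-like cells, 0.86, was from -0.021 to 1.57 with a library left out. All genes called against all other cells were 1388, and 330 without the block, 2496 with DESeq2, 335 without batch correction and 502 to 794 with a library left out. Against MLP-like cells they were 410, and 83 without the block, 652 without the low-count filter, 24 with separate clustering of every library and 161 to 474 with a library left out. Against pSHF-like cells they were 331, and 32 without the block, 703 with DESeq2, 613 without the low-count filter, 49 without batch correction 216 with separate clustering of every library and 60 to 403 with a library left out. Against CM-like cells they were 3661, and 1949 without the block, 2440 with separate clustering of every library and 1620 without E9.5. Myog at E10.5 was at 3.98 CPM over all cells and 16.1 CPM in BrM-like cells, and at 2.12 and 5.51 CPM without the 5 cells with most Myog UMIs, an alternative chosen after seeing the data. The share of Myog cells with Myod1 at E10.5, 28.0%, was 38.9% with at least 2 UMIs of each gene, while other shares were lower at that threshold. Myog cells with Tcf21 went from 51.0% to 27.8%, and with Myf5 from 38.9% to 24.1%. Myod1 cells with Tcf21 went from 58.4% to 42.3%, and with Myf5 from 28.9% to 9.86%. Myf5 cells with Tcf21 went from 67.6% to 56.1%, and with Msc from 37.8% to 29.1%. The genes at least 2-fold apart with a myogenic factor numbered 40 (6 higher and 34 lower), and 9 with doublets kept (3 and 6), 158 with seed 2 (10 and 148), 24 after thinning (0 and 24), 3 with a pseudocount of 10 CPM, 20 with at least 50 UMIs and 8 at 3-fold. The cause of these differences was not tested.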
